A study of Helianthus annuus with 9 samples.

Results

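In developing seeds of sunflower, 279 annotated genes fell by at least 4-fold from day 7 to day 22 and by at least 4-fold again from day 22 to day 37. They were chosen from the 52513 annotated genes of the mRNA table by their mean FPKM, the fragments counted per kilobase of a transcript relative to the size of the library, over the 3 libraries of each day. A gene was taken when its day 22 mean was at least 5 FPKM, its day 7 mean at least 4 times the day 22 mean, and its day 22 mean at least 4 times the day 37 mean. The set thus makes up 0.531% of the annotated genes and 7.16% of the 3897 genes whose day 7 mean was at least 20 FPKM and whose day 22 mean was at least 5 FPKM. All 3 day means entered this choice, so the levels and folds of these genes are a description and carry no test. All libraries came from seeds of L-1-OL-1, a sunflower line with high oleic acid content, which was field-grown and received no treatment. Day 7, day 22 and day 37 had 3 libraries each, and what day 0 was is not given in the labels. Separate plants are not named as the source of the libraries, so any p-value covers the spread among these libraries only, which may be technical.

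A sunflower seed first grows by cell division and by expansion of its outer layers, while the embryo is small. In the middle of development the embryo fills with storage protein and oil, and towards maturity it dries and its metabolism comes to rest. The tables used here hold no product names, so the genes are given by symbol (LOC followed by the gene ID), no role is stated for them, and the seed label was not checked against marker genes.

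Summed over the whole mRNA table, FPKM came to 545670 ± 3478 at day 7 (SD, n = 3), then 281960 ± 51503 at day 22 and 222097 ± 65388 at day 37. Sequencing depth is unknown because no counts are in the tables. On both late days the library numbered 1 had the highest sum and the library numbered 3 the lowest. FPKM are relative values, and in whole seeds fewer cells of a type and less RNA per cell cannot be told apart.

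The 279 genes together held 11.8 ± 0.0985% of the FPKM sum of the mRNA table at day 7 (SD, n = 3), 1.74 ± 0.326% at day 22 and 0.215 ± 0.0787% by day 37. In single libraries this share was 11.9%, 11.7% and 11.9% on day 7, 2.06%, 1.74% and 1.41% on day 22, and 0.275%, 0.245% and 0.126% on day 37. No day overlapped another. LOC110897319 alone made up 26.0% of the day 7 sum of the set, and the 8 highest genes 45.4%, whereas on day 22 the 8 highest held 22.0%.

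**Figure D1:**
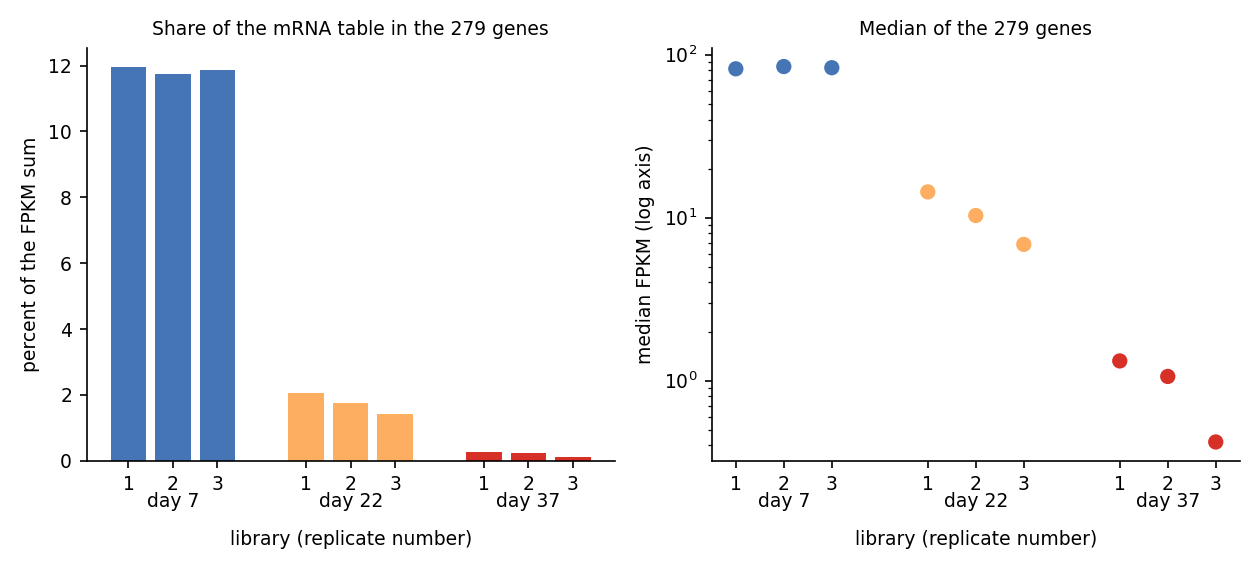
Share of the FPKM sum of the mRNA table held by the 279 genes (left, percent) and their median FPKM on a log axis (right), with 1 bar or point per library and colours marking the day. The share lies between 11.7% and 11.9% in the day 7 libraries, between 1.41% and 2.06% on day 22 and between 0.126% and 0.275% on day 37.

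The median gene of the set stood at 83.7 FPKM on day 7, 10.5 FPKM on day 22 and 0.99 FPKM on day 37. The day 7 means ran from 21.2 to 16831 FPKM, with 18 genes at 500 FPKM or more, 101 between 100 and 500, and 160 below 100. On day 22 the highest mean was 207 FPKM, 13 genes were at 50 FPKM or more and 135 below 10. By day 37 the mean was below 1 FPKM for 141 genes and at 5 FPKM or more for 19. All 279 genes were at 1 FPKM or more in every day 7 library, and 160, 144 and 54 of them were so in the day 37 libraries 1, 2 and 3.

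**Figure D2:**
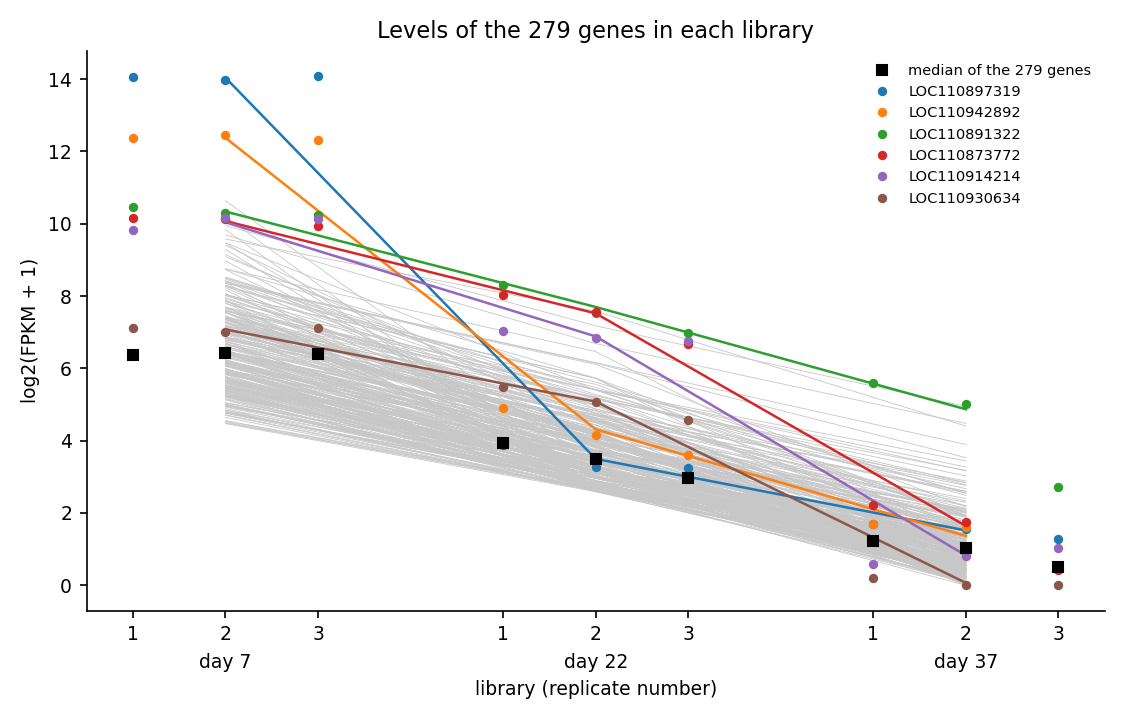
Levels of the 279 genes as log2(FPKM + 1). Grey lines join the day means of each gene, black squares are the median of the set in each library, and coloured points and lines give the single libraries and day means of 6 named genes. On this log scale LOC110897319 and LOC110942892 drop most of their range before day 22. LOC110873772, LOC110914214 and LOC110930634 drop most of it after day 22.

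For all 279 genes the lowest day 7 library lay above the highest day 22 library, and for 278 the lowest day 22 library lay above the highest day 37 library. Among all 36401 mRNA features tested the same held for 41.7% and 26.2%. The limma fit across these features used log2(FPKM + 1). A call needed a Benjamini-Hochberg adjusted p under 0.05 and a log2 change of at least 1. All 279 were called as fallen at day 22, beside 24.9% of all features and 32.5% of the annotated genes tested. At day 37 against day 22, 278 were called, beside 16.6% of all features and 21.5% of the annotated genes. From day 7 to day 37 all 279 were called, beside 38.8% of all features. The rule used the day means behind all of these contrasts, so nothing is read from these counts. The exception at the later step was the gene with ID 110919197 (log2 change −1.81 ± 1.08 (SE), limma adjusted p 0.206).

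Both intervals were 15 days long, so their folds can be set side by side. The first fold had a median of 6.22 and a middle range from 4.87 to 9.01, and the second a median of 10.9 and a middle range from 6.01 to 23.1. Among the 276 genes with a day 37 mean above 0, the second fall was the larger one for 194 and the first for 82. Of the 3897 genes past the same day 7 and day 22 levels, 975 met the second fall alone and 547 the first alone. Whether the balance is particular to the set was not tested. The day 37 mean of the median gene was 1.29% of its day 7 mean. Folds of at least 16 were reached by 33 genes in the first interval and by 100 in the second, and 17 genes reached them in both.

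**Figure D3:**
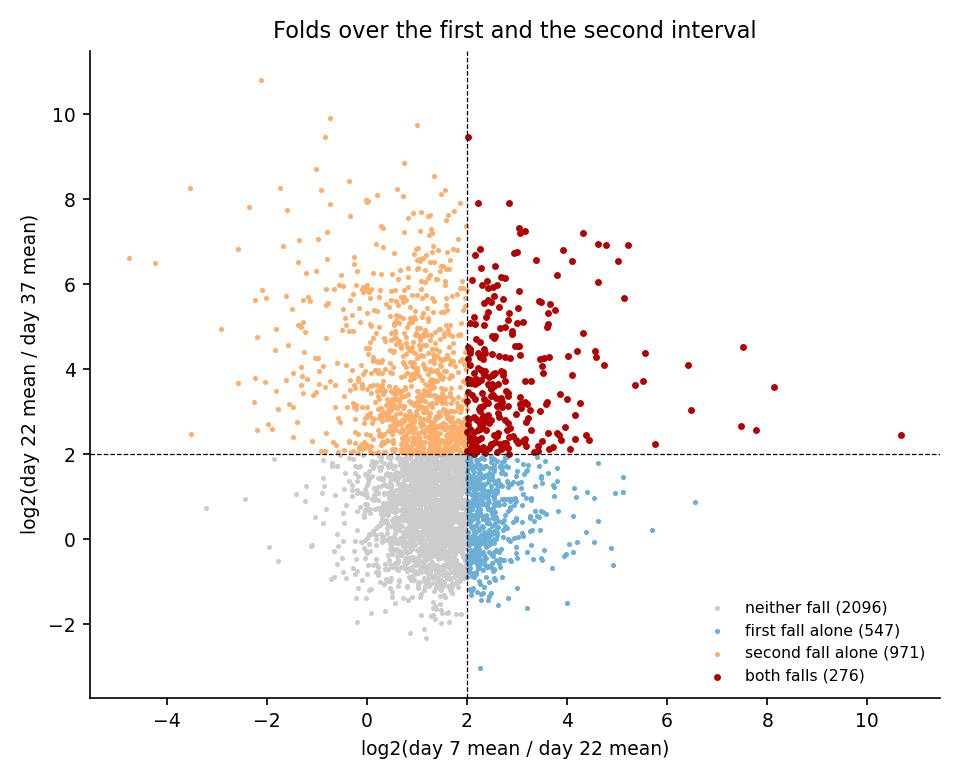
Log2 fold of each of the 3897 genes with day 7 and day 22 means of at least 20 and 5 FPKM over the first interval (horizontal) and the second (vertical), leaving out 7 genes whose day 37 mean was 0. Dashed lines mark the 4-fold limits, and the 276 dark red points above both are genes of the set, with a median fold of 6.22 over the first interval and 10.9 over the second.

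The genes just inside the limits differed little from those just outside. On the first fold LOC110899517 (4.00) and LOC110943201 (4.02) were inside, while LOC110884581 (4.00, written out 3.9998) and LOC110924399 (3.99) were outside. On the second fold LOC110936947 (4.01) and LOC110864512 (4.03) were inside, and LOC110880146 (3.99) and LOC110884211 (3.95) outside. On the day 22 level LOC110895413 (5.00 FPKM) and LOC110920773 (5.02 FPKM) were inside, and LOC110879157 and LOC110879159, listed with equal values of 4.99 FPKM, outside. Another 726 genes with a day 7 mean of at least 1 FPKM met both folds but stood below 5 FPKM on day 22.

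The set depends on how the libraries are scaled. All 279 genes were lower on day 22 than on day 7 and lower on day 37 than on day 22 under each of 4 other scalings, but fewer met the whole rule, with its day 22 level and both 4-fold falls. The number that did was 133 when median-of-ratios factors were used, 124 under a trimmed mean, 96 with quantile normalization and 58 when the sum over annotated genes was made equal. With these scalings the median first fold was 4.81, 3.76, 3.32 and 2.86, and the median second fold 6.74, 12.8, 14.7 and 7.19. The rule was met under all 4 and as deposited by 51 genes. The median log2 change of all 36401 features from day 7 to day 22 was 0.09 as deposited and 0.36, 0.55, 0.19 and 0.88 under these scalings. From day 22 to day 37 it was 0.01 as deposited and 0.43, −0.03, 0.20 and 0.40. For the annotated genes alone, as deposited, the medians of these changes were −0.53 and −0.25.

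The genes fell into 3 shapes by the balance of the 2 folds. For 28 genes the first fall exceeded the second by over 1 log2 unit, for 130 the falls were within 1 log2 unit of each other, and for 118 the second exceeded the first by over 1. The first shape had a median first fold of 18.5 and second fold of 5.58, and started from the highest level, with a median day 7 mean of 277 FPKM. The balanced shape had median folds of 6.08 and 6.98, and the late-weighted shape 5.65 and 28.0. Their median day 7 means were 66.8 and 82.2 FPKM. The shapes were set by these same day means, so the higher start of the first shape is in part built into the grouping.

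Among the genes that lost most of their level before day 22, LOC110897319 was listed at 17171, 15986 and 17334 FPKM on day 7, at 13.6, 8.69 and 8.54 on day 22, and at 2.22, 1.93 and 1.44 on day 37. Its first fold of 1637 and second fold of 5.52 were the most unequal of the set. LOC110942892 stood at 5281, 5591 and 5076 FPKM on day 7, at 28.8, 16.9 and 11.1 on day 22, and at 2.22, 2.08 and 0.43 on day 37. On each late day the library numbered 1 was the highest for both genes, and the days did not overlap. LOC110864410 went from 1592 ± 20.6 FPKM (SD, n = 3) through 8.88 ± 3.35 to 1.4 ± 0.676, and LOC110864411 from 1179 ± 135 through 5.37 ± 0.966 to 0.903 ± 0.407. LOC110895413 was listed at 922, 894 and 921 FPKM on day 7, at 6.71, 4.81 and 3.48 on day 22, and at 0.33, 0.31 and 0.01 on day 37. Its day 22 mean of 5.00 FPKM was the lowest that the rule allows.

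The falls were most equal in LOC110940927, with folds of 9.16 and 9.15. It was listed at 88.4, 92.4 and 88.3 FPKM on day 7, at 13.3, 9.73 and 6.4 on day 22, and at 1.74, 1.06 and 0.41 on day 37. LOC110912364 had folds of 8.42 and 8.52, from 71.5 FPKM through 8.49 to 0.997. LOC110918282 had folds of 4.18 and 4.16, and its day 37 libraries at 1.62, 1.32 and 1.64 FPKM differed less from each other than its day 22 libraries at 8.32, 6.63 and 4.09.

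The late-weighted genes had median levels of 12.1 FPKM on day 22 and 0.427 FPKM on day 37. LOC110930634 was listed at 136, 129 and 137 FPKM on day 7, at 43.6, 32.3 and 22.7 on day 22, and at 0.14, 0 and 0 on day 37. Its first fold of 4.08 was close to the limit, and its second fold of 704 was the largest of the set, though it rests on 1 library above 0. LOC110914214 stood at 900, 1142 and 1113 FPKM on day 7, at 129, 114 and 108 on day 22, and at 0.51, 0.76 and 1.04 on day 37, with folds of 8.98 and 152. Its day 22 libraries lay close together, while those of LOC110873772 were spread. LOC110873772 was listed at 1134, 1116 and 982 FPKM on day 7, at 261, 187 and 101 on day 22, and at 3.66, 2.36 and 0.33 on day 37, with folds of 5.90 and 86.4. LOC110918398 went from 37.3 ± 1.46 FPKM (SD, n = 3) to 8.05 ± 7.45, with day 22 libraries at 16.0, 6.84 and 1.27. Its day 37 libraries were at 0.10, 0 and 0, so its second fold of 241 also rests on 1 library above 0.

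Some genes fell strongly over both intervals. LOC110929963 went from 225 ± 31.5 FPKM through 6.10 ± 2.58 to 0.05 ± 0.05 (SD, n = 3), with folds of 37.0 and 122. LOC110918528 went from 199 ± 4.89 through 7.28 ± 2.09 to 0.0600 ± 0.0173 FPKM, with folds of 27.3 and 121. With LOC110897319, LOC110942892 and LOC110895413 they had the largest total falls, between 3311-fold and 9033-fold. Folds against day 37 means this close to 0 rest on values near the 2 decimals of the table.

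Listed at 0 in all 3 day 37 libraries were LOC110937037, LOC110912421 and the gene with ID 110919197. LOC110937037 was at 152, 150 and 171 FPKM on day 7 and at 36.8, 23.9 and 20.8 on day 22. LOC110912421 was at 39.0, 38.9 and 38.7 FPKM on day 7 and at 7.34, 5.71 and 3.87 on day 22. No second fold is given for these 3 genes, since a value of 0 in a table without counts sets no floor. Genes of the set listed at 0 numbered 5, 9 and 18 in the day 37 libraries 1, 2 and 3.

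The order of the genes changed over time. Of the 8 highest genes of day 7, 4 were among the 8 highest of day 22 and 2 among the 8 highest of day 37. LOC110891322, at rank 4 on day 7, was the highest of the set on day 22 and the second highest on day 37. It was listed at 1413, 1251 and 1214 FPKM on day 7, at 313, 183 and 124 on day 22, and at 47.8, 31.2 and 5.63 on day 37. LOC110899517 stood at 738, 768 and 783 FPKM, then at 255, 191 and 126, and then at 30.0, 24.6 and 5.88. LOC110939906 stood at 1008, 1001 and 949 FPKM, then at 196, 146 and 89.0, and then at 46.3, 36.1 and 7.19. In all 3 genes library 1 was the highest and library 3 the lowest on both late days, and the days did not overlap. LOC110897319 moved from rank 1 to rank 141 on day 22 and rank 72 on day 37. Across the 279 genes the rank correlation of the day means was 0.70 between day 7 and day 22, 0.48 between day 22 and day 37, and 0.28 between day 7 and day 37. These are descriptions across genes that share the same libraries and were selected on these means.

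Of the 279 genes, 274 were found in the RefSeq gene table (assembly HanXRQr2.0-SUNRISE), and all 274 were protein-coding. The gene with ID 110893685, which had no match, was the tenth highest on day 7, at 824 FPKM, and stood at 102 FPKM on day 22 and 21.2 on day 37. The other unmatched genes, with IDs 110904332, 110884324, 110879015 and 110919197, had day 7 means of 87.9, 47.8, 25.3 and 115 FPKM. The median length of the matched genes from start to end was 3112 bp, with a middle range from 1783 to 4516 bp. The median was 3111 bp for 536 genes that met the first fall alone, 3349 bp for 959 that met the second fall alone and 4245 bp for 2065 that met neither, all among genes past the same levels. A single RefSeq transcript was listed for 83.9% of the matched genes of the set, and for 84.3%, 79.8% and 73.7% of these 3 groups. Within the set, the 28 early-weighted genes had a median length of 2251 bp, the 126 matched balanced genes 3478 bp and the 118 late-weighted genes 2885 bp. Length was not used by the rule, but FPKM divides by transcript length, and whether gene length bears on the falls was not tested.

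In the order of protein-coding genes in the gene table, 9 of the 274 genes (3.28%) had another gene of the set directly beside them. The share was 2.61% for the genes with the first fall alone, 8.05% for those with the second alone and 11.3% for those with neither, in groups of 536, 957 and 2062 genes, whose sizes also set these shares. The adjacent genes formed 3 pairs and 1 run of 3. LOC110864410 and LOC110864411, which were among the 5 highest genes of day 7, were 1 pair. LOC110921011 and LOC110921013 were another, at 706 ± 16.7 and 330 ± 9.33 FPKM on day 7 (SD, n = 3), 8.30 ± 3.92 and 7.02 ± 3.68 on day 22, and 0.483 ± 0.418 and 0.337 ± 0.317 on day 37. LOC110899589 and LOC110899592 had identical values in all 9 libraries, from 138 FPKM through 15.9 to 3.21, so they cannot be told apart in these tables and are uncertain as separate genes. They were the only genes of the set with such a copy, among 144 of 21912 annotated genes at a mean of 1 FPKM or more.

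The run of 3 was LOC110940220, LOC110940221 and LOC110940222. On day 7 they stood at 192 ± 9.09, 185 ± 6.01 and 154 ± 13.4 FPKM (SD, n = 3), close to each other. On day 22 they had separated, to 46.2 ± 21.7, 16.9 ± 7.81 and 26.0 ± 12.4 FPKM, with first folds of 4.15, 10.9 and 5.91. On day 37 they were at 2.67 ± 1.86, 0.887 ± 0.491 and 0.950 ± 0.722 FPKM. The day 22 order was the same in each library, from 68.3, 25.2 and 38.8 FPKM in library 1 to 25, 9.64 and 13.9 in library 3.

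LOC110897319 lay at the end of a row of genes that were all abundant on day 7. LOC110897314, LOC110897316 and LOC110897318, directly before it, stood at 2289 ± 139, 4148 ± 212 and 5320 ± 250 FPKM on day 7 (SD, n = 3) and at 1.27, 1.47 and 1.07 FPKM on day 22. They met the first fold but neither the day 22 level nor the second fold, with day 37 means of 0.36, 0.41 and 0.633 FPKM. On the other side LOC110897320 was at 0.823 FPKM on day 7. In the whole set, 261 protein-coding genes directly beside a gene of the set, and not in it, were tested in the limma fit. Of these, 39.1% were called as fallen at day 22 and 24.5% at day 37 against day 22, beside 32.5% and 21.5% of all annotated genes tested. The share called as fallen at both steps was 11.1% (29 genes), beside 7.83% of all annotated genes. Genes are not replicates, and these shares were not tested.

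On both late days most genes of the set were higher in library 1 than in library 3. On day 22 all 279 were higher in library 1 than in library 3, with a median ratio of 2.12 after adding 0.1 FPKM to each value, and 267 (95.7%) followed the order 1, 2, 3. The ratio was 2.25 for the genes with the first fall alone, 1.96 for those with the second alone and 1.98 for those with neither, and the order held for 95.1% to 96.5% of them. On day 37, 243 genes (87.1%) were higher in library 1 than in library 3, with a median ratio of 2.63, and 64.5% followed the order 1, 2, 3. In the other 3 groups this ratio was 5.45, 3.44 and 4.67. Among all 21912 annotated genes at a mean of 1 FPKM or more, 79.9% were higher in library 1 on day 22 and 76.5% on day 37, with median ratios of 1.69 and 2.73, so the day 37 ratio of the set was near that of all genes. Among genes with day 37 means from 2 to 5 FPKM, the ratio was 4.02 for 45 genes of the set, 4.52 for 129 with the first fall alone, 3.83 for 309 with the second alone and 4.41 for 331 with neither. LOC110914214 was one of the genes whose day 37 order ran the other way, with library 3 the highest.

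**Figure D4:**
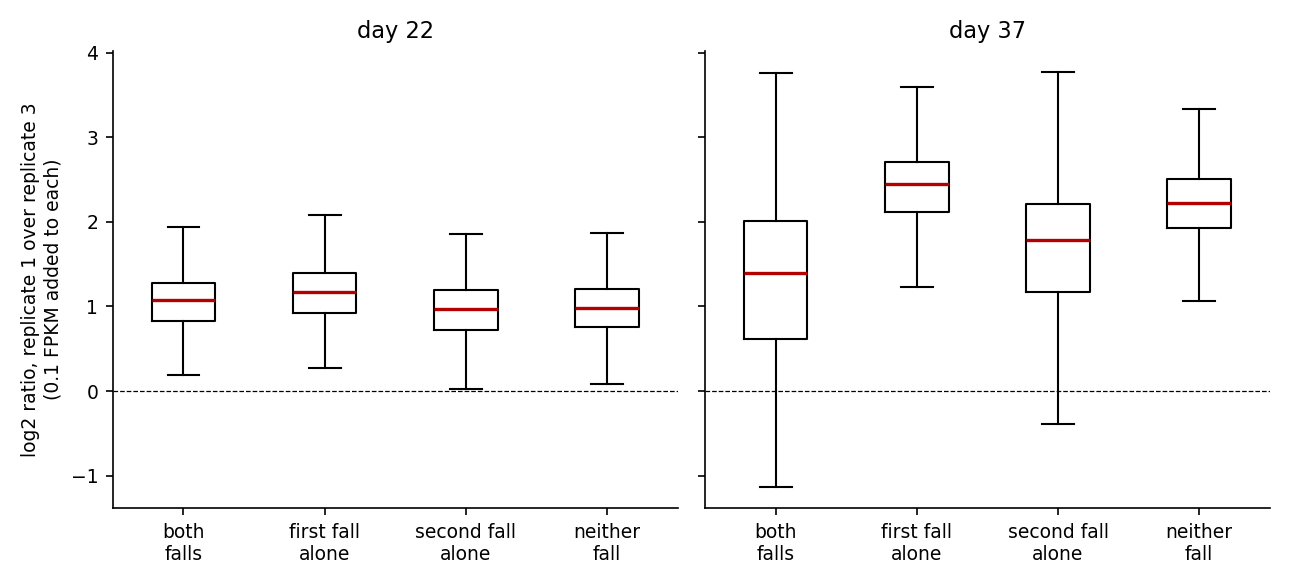
Log2 ratio of library 1 to library 3 on day 22 (left) and day 37 (right) for the 279 genes with both falls, the 547 with the first fall alone, the 975 with the second alone and the 2096 with neither. Boxes give the middle range, red lines the median and whiskers the values within 1.5 box lengths. The groups have medians between 0.97 and 1.17 on day 22, and on day 37 the genes with both falls have the lowest median, 1.39. Among genes with day 37 means from 2 to 5 FPKM their median ratio is not the lowest (4.02, against 3.83 for the second fall alone).

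The coefficient of variation between the libraries of a day had a median of 4.20% on day 7, 36.5% on day 22 and 55.7% on day 37 over the genes of the set. The gene least well placed was the one with ID 110919197, whose day 22 mean of 13.8 FPKM came from 1 library, with values of 41.4, 0.01 and 0 FPKM. It was at 125, 99.9 and 119 FPKM on day 7 and at 0 in all day 37 libraries.

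Other transcripts at the same genes were read from the deposited assembly, which covers 5 nuclear chromosome sequences and names 24 genes of the set. At 8 of them a spliced transcript shared a junction with the annotated gene, and 6 of these loci were listed in the mRNA table under their own names. The names were matched by locus number, which the files do not state, so every value of an assembled locus given here rests on that inference. The rule did not use these values, although assembled and annotated forms may share reads. MXLOC_014579, the isoform locus of the gene with ID 110919197 (NC_035434.1 from 104360132 to 104372020), did not follow it. It stood at 66.3, 67.1 and 70.6 FPKM on day 7, at 72.1, 54.5 and 38.3 on day 22, and at 82.7, 67.1 and 46.8 on day 37. The days overlapped, and its log2 change at day 22 was −0.35 with a limma adjusted p of 0.503.

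At 3 genes the assembled form also fell. The annotated forms were chosen for 4-fold falls at both steps and the assembled forms were not. A difference in timing between them is therefore not read as a result. MXLOC_004730, at LOC110878248, went from 18.2 ± 2.52 FPKM (SD, n = 3) to 9.62 ± 4.05 on day 22, a log2 change of −0.93 that was below the limit of 1, and then to 0.177 ± 0.306, a log2 change of −3.12 (limma adjusted p 1.4e-05). MXLOC_052631, at LOC110941154, went from 13.6 ± 1.05 through 8.51 ± 0.469 to 1.06 ± 0.715 FPKM, with a call at the second step alone (log2 change −2.27, limma adjusted p 7.7e-05). The annotated forms of these 2 genes had first folds of 4.98 and 4.71, which are ratios of day means and not changes of log2(FPKM + 1). MXLOC_048523, at LOC110939874, fell from 15.9 ± 0.833 to 0.580 ± 0.197 FPKM on day 22 (log2 change −3.43, limma adjusted p 1.74e-06). It stood at 2.01 ± 1.46 on day 37, where the later change was not called (0.78, limma adjusted p 0.11). This locus passed the filter of 1 FPKM in 3 libraries only with those of day 7, where it was high, so nothing is read from its call at day 22. Among all assembled loci tested in this table, of every kind, 5.07% were called as fallen at day 22 and 3.96% at the second step.

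MXLOC_020451, at LOC110919670, was the assembled form that rose. It stood at 0.03, 0.01 and 0.01 FPKM on day 7, at 1.66, 2.42 and 2.47 on day 22, and at 2.45, 2.43 and 2.10 on day 37 (log2 change at day 22 of 1.64, limma adjusted p 8.38e-07). It passed the filter of 1 FPKM in 3 libraries through the late days, so it had to differ from day 7. Rises at day 22 were called for 67.4% of all assembled loci tested, which include loci that share no junction with a gene. The share among loci that share a junction was not computed. LOC110919670 itself fell from 56.7 FPKM through 11.4 to 1.61. MXLOC_043817, at LOC110936410, stood at 1.19, 1.11 and 0.44 FPKM and was not called at either step. From day 7 to day 37, 3 of the 6 assembled forms were called as fallen and 1 as risen. Of all assembled loci, again of every kind, 8.35% and 79.2% were so called. Among the fallen forms, MXLOC_048523 passed the filter only with its day 7 libraries. The risen form was MXLOC_020451, which passed through the late days, so nothing is read from these counts.

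Antisense transcripts, with exons overlapping those of the gene on the other strand, were assembled at 18 of the 24 genes, as 20 single-exon loci. Among the deposited lncRNA, 12 of them were listed, at 10 genes. They were low, with no day 7 library above 0.23 FPKM and no late library above 2.96 FPKM. In 11 of the 12, all day 22 libraries lay above all day 7 libraries, and the same held for 92.8% of the 1629 antisense loci listed, so this count is near the background. LXLOC_054305, at LOC110941773 (NC_035437.1 from 190864859 to 190866314), was listed at 0 on day 7, at 1.24, 1.67 and 2.43 FPKM on day 22 and at 1.89, 2.23 and 2.96 on day 37. LXLOC_008761, at LOC110870764 (NC_035433.1 from 85612844 to 85614704), rose from 0.0267 ± 0.0115 FPKM to 1.41 ± 0.611 (SD, n = 3) and stood at 1.72 ± 0.297 on day 37. LOC110870764 itself fell from 564 ± 7.5 FPKM through 23.0 ± 8.03 to 0.187 ± 0.118.

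Only 5 of the 12 antisense loci passed the filter of 1 FPKM in 3 libraries, and they passed through the late libraries, so that they had to differ from day 7. Of these, 4 were called as risen at day 22, with log2 changes from 1.05 to 1.45, beside 63.1% of all antisense loci tested and 60.9% of all lncRNA. Their median change of 1.12 equalled that of all antisense loci tested, 1.12. The count is thus near the background and is not a result about these genes. LXLOC_028805 at LOC110930824 and LXLOC_034052 at LOC110930423 were the others called. From day 7 to day 37, 3 were called as risen, beside 88.3% of all antisense loci. At the second step limma called 0 as risen or fallen, beside 0.129% and 0.644% of all antisense loci, and 0 of the 5 had an unadjusted p under 0.05. The labels do not state a stranded counting, so reads of a gene and of its antisense partner cannot be told apart. At LOC110930824 a sense isoform was listed in the lncRNA table, LXLOC_034737, at 0.52, 1.32 and 1.41 FPKM over the 3 days, with no call at either step.

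Circular RNA (circRNA), in which a downstream splice site is joined to an upstream one, was listed as a scaled signal with no stated unit. Only the 24 genes of the set named in the assembly could be searched. Of the 3482 circRNA, 22 overlapped the span from the first to the last assembled exon at 6 of these genes. Of these 22, 19 were above 0 on day 7 and at 0 in all 6 late libraries. The same held for 50.9% of all circRNA. Several of the 19 were listed in 1 day 7 library alone, at 28 or 29. At LOC110869956, LOC110914214 and LOC110941773 the span was that of an antisense locus alone. With both ends inside the assembled span, 19 circRNA at 5 genes summed to 448, 751 and 651 on day 7, to 0, 20 and 57 on day 22, and to 0, 0 and 19 on day 37. The difference between day 7 and day 22 had an exact two-sided permutation p of 0.1, the smallest that 3 against 3 libraries allow. For day 22 against day 37 the exact p was 0.4. The sum over all circRNA also fell, from 390959 ± 13075 on day 7 (SD, n = 3) to 43002 ± 30203 on day 22. It stood at 65369 ± 40739 on day 37, so it did not fall further.

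LOC110914214 accounted for 13 of the 22. They lay on NC_035434.1 between 42307180 and 42307842, at the antisense locus assembled there from 42307333 to 42307926, and shared several ends. Their sum was 392, 780 and 665 on day 7, 0, 20 and 19 on day 22, and 0 in all day 37 libraries. The gene itself stood at 1051 ± 132 FPKM on day 7 (SD, n = 3) and at 117 ± 10.9 on day 22, which is 11.1% of its day 7 level. FPKM and the circRNA signal are on unlike scales, and the sum over all circRNA fell over this interval as well. The highest of the 13, from 42307461 to 42307659, was listed at 154, 188 and 274 on day 7 and at 0 in all late libraries (log2 change −3.53 ± 0.241 (SE), limma adjusted p 1.7e-05). It was 1 of 3 that could be tested. All 3 were called as fallen at day 22, beside 50.2% of all circRNA tested. They passed the filter through day 7, where they were high, so nothing is read from these calls. At LOC110930824 1 circRNA was listed on the late days alone, at 38 in day 22 library 3 and 19 in day 37 library 3.

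**Figure D5:**
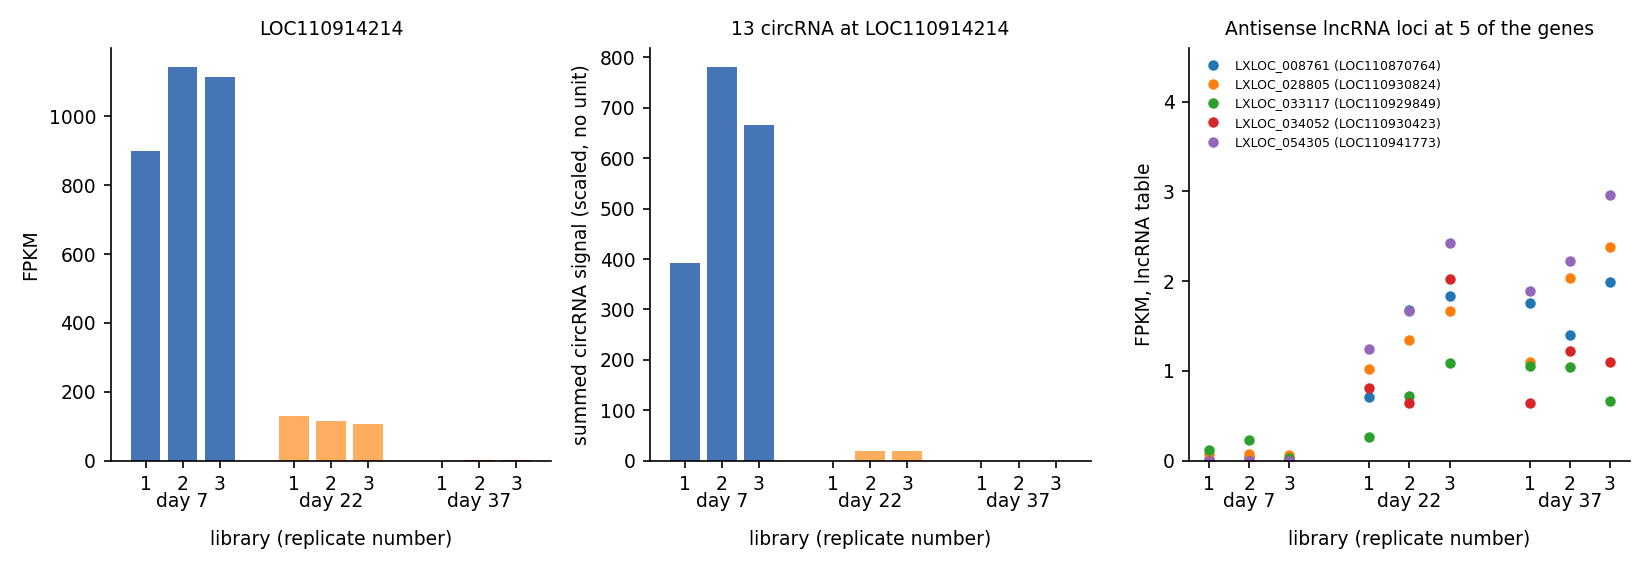
Levels by library of LOC110914214 in FPKM (left), of the summed signal of 13 circRNA at that gene (middle), and of 5 antisense lncRNA loci in FPKM (right). On day 22 the gene is at 108 to 129 FPKM and the circRNA sum at 0, 20 and 19. The antisense loci stay below 0.25 FPKM on day 7 and below 3 FPKM later. From day 7 to day 22 the sum over all circRNA fell too, and 19 is the lowest circRNA signal above 0.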

How the data were processed

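Total RNA of 9 seed libraries was depleted of ribosomal RNA before sequencing, per the labels' protocols. The submitters' processing notes name DESeq2 1.4.5, RSEM 1.2.12, Bowtie2 2.2.5 and HISAT2 2.0.4 without their roles. Gene levels were deposited as FPKM, per the file headers. The authors' circRNA values are a signal whose unit the headers do not name. Positions are the files' own, on a genome build not given in the sources used here. With 65535 features each, the mRNA and lncRNA tables reach the row limit of an old spreadsheet format and may be part of longer ones. No column of other samples was present.

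The members and lists were chosen with earlier results of these data known. Genes were named by level, total fall, balance of the folds, nearness to a limit, overlap of libraries, or a called lncRNA or circRNA, and adjacent genes were added after their values were seen. Features reaching 1 FPKM in 3 or more libraries were fitted as log2(FPKM + 1), and circRNA above 0 in at least 3 libraries as log2(signal + 19), with limma 3.58.1 in R 4.3.3 (trended, robust), 1 fit of all 9 libraries per table, after tests on simulated data. Assembled loci were matched to the tables by number (XLOC to MXLOC or LXLOC), an inference that the files do not state: of those sharing a junction with a gene 46.3% were listed as MXLOC, and of the antisense ones 3.67%. Gene names, lengths and order (by chromosome and start) come from RefSeq, assembly HanXRQr2.0-SUNRISE. Its coordinates were not set against the positions of assembled loci or circRNA. Planned comparisons on protein and promoter sequences and on product names were not run here.

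Same-numbered libraries of day 22 and day 37 deviated together for numbers 1 and 3 (correlations 0.77 and 0.78 across features) and little for number 2 (0.15). The correlations with day 7 lay between −0.06 and 0.06. Both late days also had the highest FPKM sum in library 1 and the lowest in library 3. Whether the numbers mark paired samples was not tested. Sums, permutation tests and plots were made in Python 3.11.15 (scipy 1.17.1, pandas 2.3.3, matplotlib 3.10.9, numpy 2.4.6).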

Additional observations from a re-analysis of the deposited data

How the results depend on the processing

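The size of the set moved with its limits and with the scaling. In place of 279 genes, the rule took 133 under median-of-ratios factors, 163 under a trimmed mean, 98 with quantile normalization and 73 with equal sums over annotated genes. It took 649 with a day 22 minimum of 1 FPKM, 144 with 10 FPKM, 584 with folds of at least 3 and 108 with folds of at least 6. When single libraries were left out it took 230 to 347 genes, and 155 of the 279 were in all 9 of these sets. Without day 22 replicate 1, 279 genes met the rule, of which 209 were among the original ones, and without day 37 replicate 3 230 did. Without both late libraries numbered 3, an alternative added after the data were seen, 243 did. With a replicate block the limma calls of the set stayed at 279 and 278, and the block changed no count of calls. Without single libraries the later count was 247 to 278, the lowest without day 22 replicate 1. With a pseudocount of 0.1, antisense loci called as risen from day 7 to day 37 numbered 5 in place of 3, and sense lncRNA loci 1 in place of 0. Assembled loci of the mRNA table called as fallen at day 22 numbered 1 to 2 without single libraries. Other alternatives kept their counts within 1.5 times. Depth is unknown, and day 37 values near 0 limit the second folds.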
